A study of Canis lupus familiaris with 60 samples.

Results

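Skin of nonsensitized Beagle dogs was compared 24 hr after a patch with house dust mite allergen and 24 hr after a patch with saline. The comparison used 12 of the 60 arrays of the series, chosen by their labels: 6 allergen sites and 6 saline sites, 1 of each from the same 6 dogs. The dogs of the study were 2 to 3 yr old (mean, 2.3 yr), and the nonsensitized group held 2 males and 4 females, kept as nonallergic controls. Each dog was clipped on the lateral chest 4 days before the patches. The allergen patch carried 75 mg of a paste of milled Dermatophagoides farinae mites in saline, and the saline patch carried 50 µl of physiologic saline. Both were held under a bandage that was renewed at 6 hr. Punch biopsies of 8 mm were taken under local lidocaine from untreated skin at 0 hr and from an allergen and a saline site at 6 hr and again at 24 hr. The other 6 dogs had been sensitized to the mite through the skin beforehand (4 males and 2 females) and received the same patches. Untreated skin was thus sampled before any patch, bandage or other biopsy. In every comparison of a 24 hr site with untreated skin, time, bandage, earlier biopsies and array slide cannot be told apart. The allergen and the saline site shared all of these except, in 1 dog, the slide.

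Skin that is irritated or wounded releases interleukin 6 and related cytokines, which act through the transcription factor STAT3 and induce acute phase proteins. Chemokines then draw monocytes, neutrophils and lymphocytes out of the blood, and proteases of the ADAMTS and matrix metalloproteinase families cut the proteoglycans and collagens of the dermal matrix. House dust mite material itself carries proteases and ligands of pattern receptors.

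Total RNA of each biopsy was labelled with Cy3 and hybridized to 1 canine Agilent array. The values are background-subtracted spot intensities on the log2 scale after division by each array's 75th percentile, so differences are log2 ratios and a difference of -1 is a halving of the signal. The share of spots well above background was 68.85% to 77.59% over the 24 hr arrays of these dogs, and no spot was saturated. Spots had to be flagged as well above background by 5 or more of the 6 allergen arrays or of the 6 saline arrays, which left 42843 probes. The keratinocyte adhesion gene DSG1 and the collagen gene COL1A1 were well above background on 6 of 6 arrays of either site. A change was called when limma, with the dog as a block, gave a Benjamini-Hochberg adjusted p below 0.05 over all probes and a difference of at least 1.5-fold. Only 1235 symbols could be given to the probes tested, and many of these names come from identifiers in a gene list that the study chose from these arrays. In that list 134 of 694 named probes were called lower, against 13 of 1228 named probes outside it, so the counts of named genes below are not independent evidence of a direction.

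At the allergen site PTX3, ADAMTS4 and TNFAIP6 had the largest falls among the named genes that cleared background on all 12 arrays, while 223 of the 370 probes called lower have no name here. In all, 370 probes (342 identifiers) were called lower, 0.864% of the probes tested, and 278 (269 identifiers) were called higher, 0.649%. The largest fall was -5.29 and the largest rise was 3.72, and 24 probes fell but 6 rose by more than 4-fold. The median change was -0.85 among the probes called lower and 0.75 among those called higher. The value was lower in 6 of 6 dogs for 366 of the 370 probes. For 189 of the 370 every allergen array was below every saline array, against 1.07% of all probes, and for 77 of the 278 every allergen array was above every saline array, against 0.635% of all probes. As the calls rest on the same arrays, these last counts describe the calls and do not test them. The largest rise belonged to ENSCAFT00000042272, which has no symbol here.

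The size of the change differed between the dogs. The median difference over the 370 probes was -0.69 in dog 2704, -0.56 in dog 2716 and -1.10 in dog 2800. It was -1.24 in dog 2802, -0.83 in dog 2845 and -0.80 in dog 2847. Over all probes tested, the medians lay between -0.01 and 0.09. These medians are over probes chosen on the same 6 dogs, so that each is negative follows from the choice. Dogs 2800 and 2802 had the largest medians in size.

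The number of calls depended on single dogs and on the pairing. Leaving out dog 2716 gave 331 lower and 260 higher calls. Leaving out dog 2704 reduced the calls to 189 lower and 134 higher, and leaving out dog 2845 reduced them to 158 and 129. Omitting dog 2802 gave 94 lower and 59 higher calls, and omitting dog 2847 gave 74 and 47. Dog 2800 had its allergen site on slide 1 and its saline site on slide 2, whereas the other dogs had both sites on the same slide. Without it 47 probes were called lower and 24 higher, and the median over the 370 was -0.81. Within slide 1, which held both sites of 3 dogs, that median was -0.70. Here limma called 0 probes in either direction, and 4804 of all probes had an unadjusted p below 0.05. The 370 were chosen with these dogs, so both medians are descriptions and no support for the calls. Without the pairing by dog, as in the design of the methods, 137 were called lower and 50 higher. The scaling moved the balance of the calls: 57.1% were falls with the 75th percentile, 65.6% with quantile scaling, 74.5% with variance stabilization and 84.9% with no scaling. A change of background correction and scaling together (normexp and quantile) gave 74.5%.

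**Figure D1:**
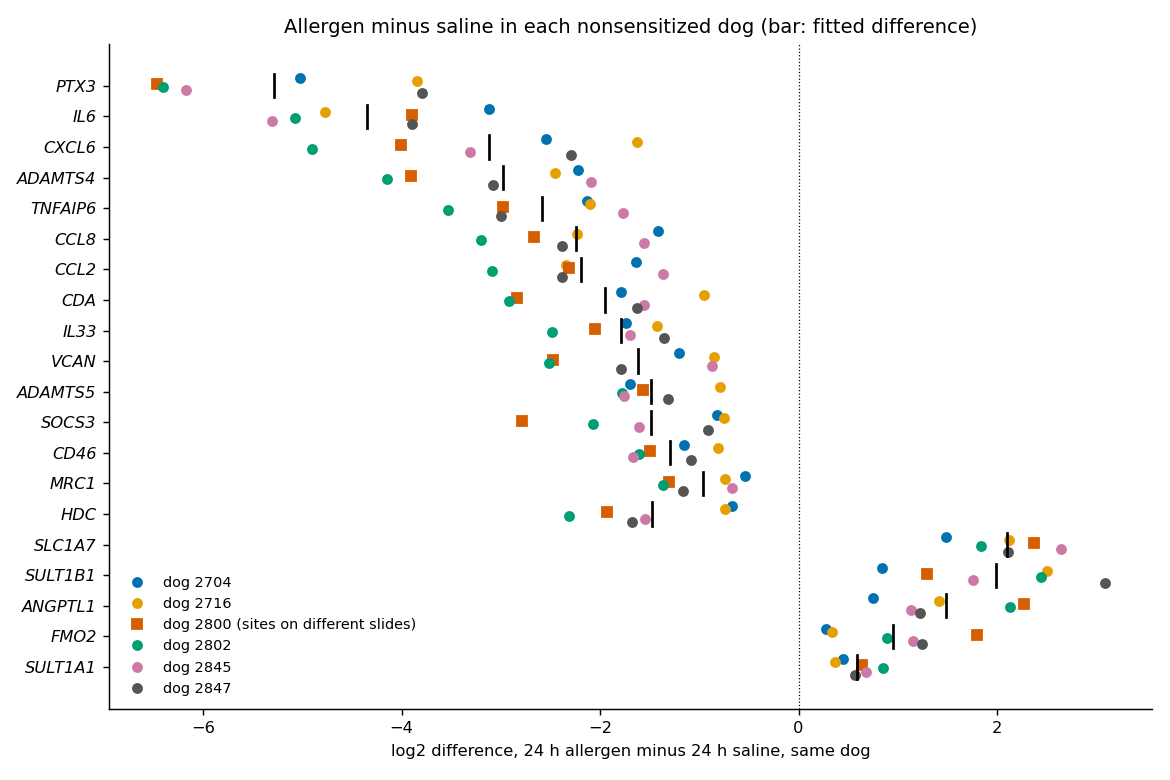
Allergen minus saline difference at 24 hr (log2, horizontal axis) for 20 named genes, 1 point per nonsensitized dog and a bar at the fitted difference, with a square for dog 2800, whose sites were on different slides. CXCL6 is drawn at its measured values, although its allergen signals were not well above background. The points of the genes called lower all lie below 0, from -6.47 to -3.80 for PTX3, and those of the genes called higher all lie above 0.

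The gene lists are described by counts, to be read beside the 0.864% of all probes called lower and the 134 of 694 named probes of the study's gene list. Of the 8 members of the IL-6 family and acute phase list past the filter, 7 fell and none rose, with a median difference of -0.98 against 0.05 over all probes. Of these 8, 7 are in the gene list of the study.

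Pentraxin 3 (PTX3, ENSCAFT00000014125), a soluble pattern receptor of the acute phase, had a log2 signal of 9.76 to 11.53 at saline sites (median, 10.59). It was 4.42 to 6.50 at allergen sites (median, 5.20) and 4.37 to 5.41 in untreated skin (median, 4.95). The saline sites thus stood far above both other groups, while the ranges of the allergen sites and of untreated skin overlapped. PTX3 fell by 5.29 on the log2 scale, or 39.1-fold (SE 0.41, adjusted p = 0.006), and the per-dog differences ran from -6.47 to -3.80. Against untreated skin, the saline site was higher by 5.77 (SE 0.66), and the allergen site differed by 0.48 (SE 0.66, adjusted p = 0.558).

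Interleukin 6 (IL6, NM_001003301), the cytokine that gives the family its name, was at 6.09 to 7.61 at saline sites (median, 6.99). At allergen sites it was at 1.76 to 3.71 (median, 2.17), and in untreated skin at 1.19 to 2.22 (median, 1.89). The signal exceeded background clearly on 6 of 6 saline arrays, on 1 of 6 allergen arrays and on 0 of 6 untreated arrays, so the low values were read close to background. The fall was measured as 4.35 (SE 0.28, adjusted p = 0.0035) and as 3.95 at a second probe. Its size depended on the treatment of dim signals, being 2.57 with variance stabilization and 1.43 with normexp, and it was called in both.

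The signalling members moved less. SOCS3, the feedback inhibitor of this pathway, fell by 1.49 (SE 0.27, adjusted p = 0.0368), from a saline median of 7.81 to 6.51, beside 6.59 in untreated skin. The receptor subunit OSMR fell by 1.08, the transcription factors CEBPD by 0.88 and STAT3 by 0.64, and the NF-kB cofactor BCL3 by 0.78, each in 6 of 6 dogs. The receptor LIFR was the member not called, at 0.16.

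**Figure D2:**
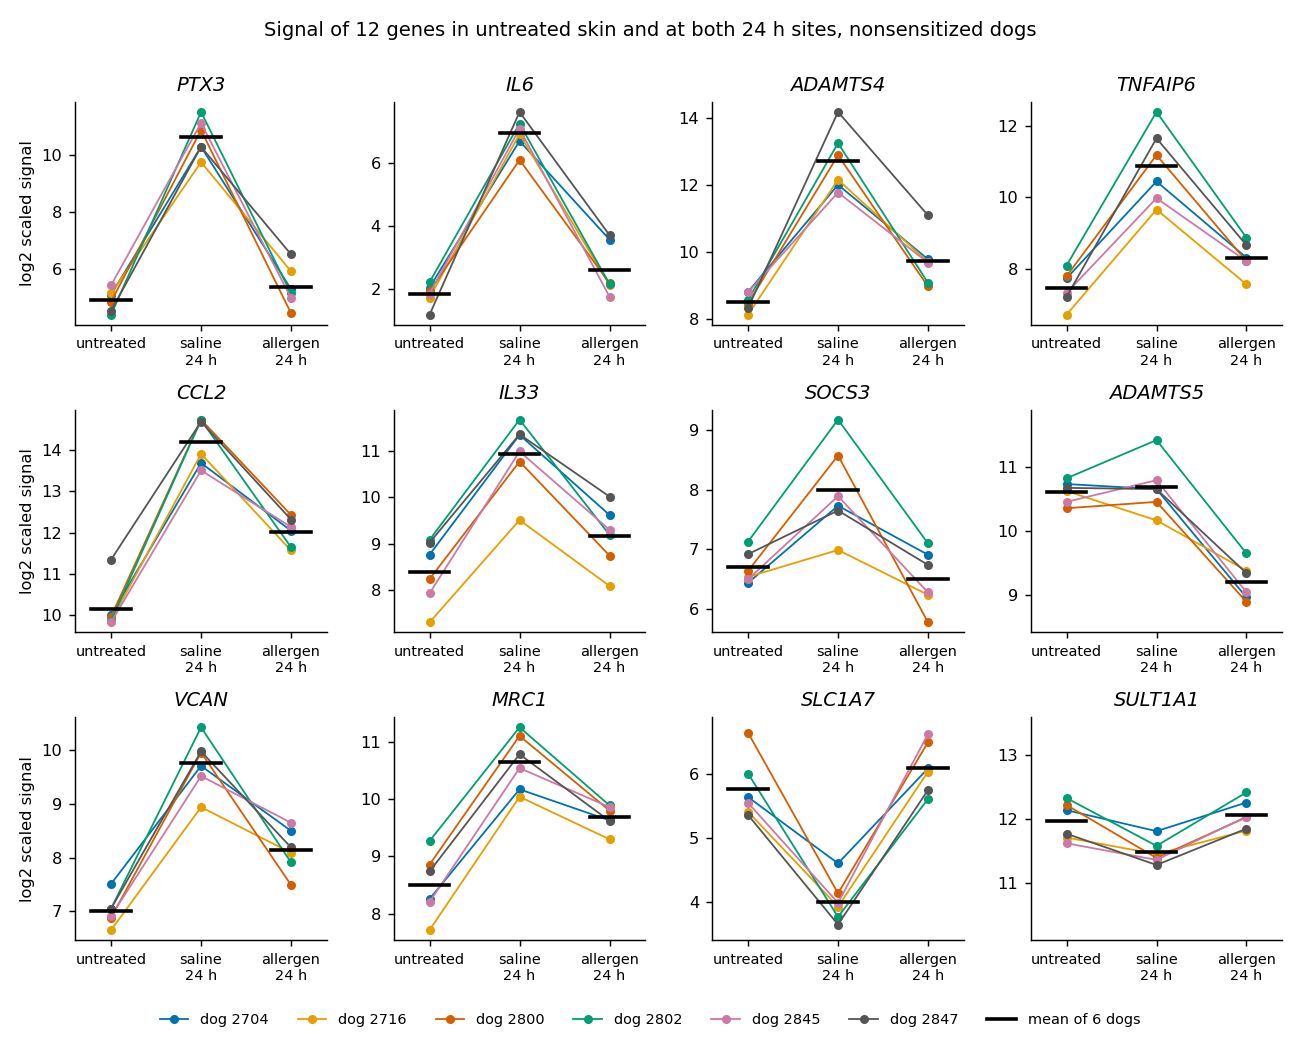
Log2 scaled signal (vertical axis, scaled separately per gene) of 12 genes in untreated skin, at the 24 hr saline site and at the 24 hr allergen site, with lines joining the samples of each of the 6 nonsensitized dogs and a bar at the mean. For PTX3 the saline sites (9.76 to 11.53) lay above every allergen site (4.42 to 6.50), whereas for ADAMTS5 the allergen sites (8.89 to 9.65) lay below both other groups.

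Of the 19 chemokines measured, 6 fell and none rose (median difference, -0.58; 8 of the 19 are in the gene list of the study). The monocyte attractant CCL2 was at 13.51 to 14.74 at saline sites (median, 14.30), at 11.57 to 12.43 at allergen sites (median, 12.10) and at 9.83 to 11.35 in untreated skin (median, 9.92). These ranges did not overlap, with the allergen sites between the other groups. CCL2 fell by 2.19, or 4.55-fold (SE 0.21, adjusted p = 0.00777), yet its allergen site stayed 1.88 above untreated skin (SE 0.45, adjusted p = 0.00119). CCL8, a related monocyte attractant, fell by 2.24 (SE 0.23, adjusted p = 0.00953), from a saline median of 10.39 to 8.30. Its 2 probes disagreed against untreated skin, where the allergen site differed by 1.10 at the brighter and by -1.43 at the other.

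The neutrophil attractant CXCL6 exceeded background clearly on 6 of 6 saline arrays but on 0 of 6 allergen arrays, which gives only a bound. With the 75th percentile scaling CXCL6 was at least 3.07-fold lower at the allergen site, or 1.62 on the log2 scale. The limma adjusted p of 0.0171 belongs to the measured values, which include the dim allergen signals, and does not test this bound. With variance stabilization the measured difference of CXCL6 was -1.32 and with normexp -0.68, both smaller in size than the bound. A bound of this kind sets the saline mean against the lowest signal that counts as well above background on each allergen array. CCL19, which guides dendritic cells and T cells, fell by 1.44, CCL13 by 1.14 and CXCL1 by 0.86. The neutrophil attractant CXCL8 differed by -0.59 (adjusted p = 0.467) and was not called. None of 6 chemokine receptors was called (median, -0.20).

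In the TNF and NF-kB list 2 of 8 members fell and none rose (median, -0.81), and 5 of the 8 are in the gene list of the study. That count is near the share called in the list of the study. TNFAIP6, a hyaluronan-binding protein induced by TNF, was at 9.66 to 12.40 at saline sites (median, 10.82), at 7.56 to 8.87 at allergen sites (median, 8.26) and at 6.71 to 8.09 in untreated skin (median, 7.52). Every allergen array was below every saline array, and the allergen range overlapped that of untreated skin. It fell by 2.59, or 6.00-fold (SE 0.23, adjusted p = 0.0066). The TNF receptor TNFRSF1A fell by 0.85 (SE 0.14, adjusted p = 0.0307), and TNF itself differed by -0.30 (adjusted p = 0.141).

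In the IL-1 family 1 of 8 members fell, with 5 of the 8 in the gene list of the study. It was IL33, an alarmin stored in the nuclei of barrier cells, and all 3 of its probes fell. The brightest was at 9.51 to 11.69 at saline sites (median, 11.18), at 8.08 to 10.02 at allergen sites (median, 9.25) and at 7.29 to 9.08 in untreated skin (median, 8.50). The ranges overlapped, but the allergen site was the lower in 6 of 6 dogs, by 1.79 (SE 0.15, adjusted p = 0.006). IL1A differed by 0.09 and the receptor antagonist IL1RN by -0.05.

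Of 9 matrix proteases and their inhibitors, 5 fell and none rose (median, -1.37), and 4 of the 9 are in the gene list of the study. ADAMTS4, which cleaves aggrecan and versican, was at 11.77 to 14.17 at saline sites (median, 12.52), at 8.97 to 11.09 at allergen sites (median, 9.69) and at 8.13 to 8.81 in untreated skin (median, 8.51). The saline sites were above all allergen sites, which in turn were all above untreated skin. The fall was 2.98, or 7.92-fold (SE 0.29, adjusted p = 0.00836), and the allergen site differed from untreated skin by 1.20 (SE 0.74, adjusted p = 0.172).

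ADAMTS5, a protease with the same substrates, showed another order. It was at 10.17 to 11.43 at saline sites (median, 10.66) and at 10.36 to 10.83 in untreated skin (median, 10.66), but at 8.89 to 9.65 at allergen sites (median, 9.19). Saline and untreated skin overlapped here, and every allergen array was below both. ADAMTS5 fell by 1.49 (SE 0.14, adjusted p = 0.00685) against saline, and the allergen site was lower than untreated skin by 1.41 (SE 0.16, adjusted p = 2.95e-07). ADAMTS1, a protease of the same family, fell by 1.28. The stromelysin MMP3 fell by 1.59 (SE 0.20, adjusted p = 0.0167), with 4 of 6 allergen and 5 of 6 saline arrays well above background. The inhibitor TIMP1 differed by -1.37 at its brightest probe and was not called (adjusted p = 0.0557).

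Of 6 genes of matrix structure 1 fell (median, -0.15). This was VCAN, which encodes the proteoglycan versican, and it fell by 1.62 (SE 0.25, adjusted p = 0.0258). COL1A1 differed by -0.17 (adjusted p = 0.7).

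Genes of myeloid and mast cells were among the other falls. The high-affinity IgG receptor FCGR1A fell by 1.84 (SE 0.35, adjusted p = 0.0394), from a saline median of 9.96 to 7.96, beside 6.36 in untreated skin. MS4A7, a membrane protein of monocytes and macrophages, fell by 1.64 (SE 0.22, adjusted p = 0.0178), and the mannose receptor MRC1 by 0.96. Histidine decarboxylase (HDC), which makes histamine, fell by 1.48 (SE 0.22, adjusted p = 0.023), and MS4A2, the beta chain of the IgE receptor, by 0.70. Over all 4 macrophage markers measured, 1 was called, and the mean level relative to the probe means was 0.26 to 1.32 at saline sites, -0.16 to 0.43 at allergen sites and -1.62 to -0.36 in untreated skin. It was lower at the allergen site in 6 of 6 dogs. Of 5 mast cell markers 2 were called, and their mean level was -0.10 to 1.09 at saline sites and -0.54 to 0.10 at allergen sites, again lower in 6 of 6 dogs. In a bulk biopsy fewer cells of a type and less RNA per cell cannot be told apart, and the part of these cells in the other falls was not tested.

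None of the 3 neutrophil, 6 dendritic cell and 5 T cell markers was called, with medians of -0.04, -0.08 and -0.22. The largest differences among them were -0.37 for S100A8, -0.40 for CD86 and -0.38 for ICOS. Nor was any of 2 endothelial and 4 fibroblast markers, with medians of -0.24 and 0.01. The endothelial receptor KDR differed by -0.56 at an adjusted p of 0.0338, below the 1.5-fold limit. No B cell and no eosinophil marker passed the filter. Markers of structures that a punch can catch unevenly depended on dog 2845. Its muscle gene DES differed by -6.27 and its melanocyte gene TYRP1 by 7.20, against -1.91 to 0.04 and 0.00 to 1.10 in the other dogs, and neither was called over all dogs. The medians were -0.63 over 3 muscle markers and 0.64 over 4 melanocyte markers, none of them called.

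Single members fell in several further lists, a share that is not clear of the 134 of 694 in the gene list of the study. They were ICAM1 among 7 genes of endothelial activation (-1.14, SE 0.20, adjusted p = 0.0352), the chitinase-like protein CHI3L1 among 5 of type 2 immunity (-1.40, SE 0.26, adjusted p = 0.037) and TLR2 among 8 pattern receptors (-0.59, SE 0.11, adjusted p = 0.0422). The calls of TLR2, MYC, FCGR1A, FMO2 and HPGD were lost whichever dog was left out. The complement regulator CD46 fell by 1.30 (SE 0.12, adjusted p = 0.00781) as the only call among 8 genes of coagulation and complement, and the transcription factor MYC by 0.61 among 3 immediate early and stress genes. Of 9 endoplasmic reticulum chaperones HSPA5 fell by 0.62, with 1 of its 2 probes called. None of 6 ribosome biogenesis genes (median, -0.47), 3 interferon response genes (-0.15) and 4 hypoxia genes (0.19) was called. The values of MRTO4, MX1 and CA9, their largest differences, were -0.65, -0.47 and 0.80.

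Among the named genes with the largest falls were also some outside these lists. Cytidine deaminase (CDA) fell by 1.95 (SE 0.26, adjusted p = 0.0179), the transporter ABCA8 by 1.56 (SE 0.18, adjusted p = 0.0153) and the calcium pump ATP2B3 by 1.5 (SE 0.13, adjusted p = 0.00646). The metal-binding protein MT2A fell by 1.52 (SE 0.29, adjusted p = 0.0403), from a saline median of 15.65 to 14.33, and RTEL1 by 1.84 (SE 0.20, adjusted p = 0.0129).

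**Figure D3:**
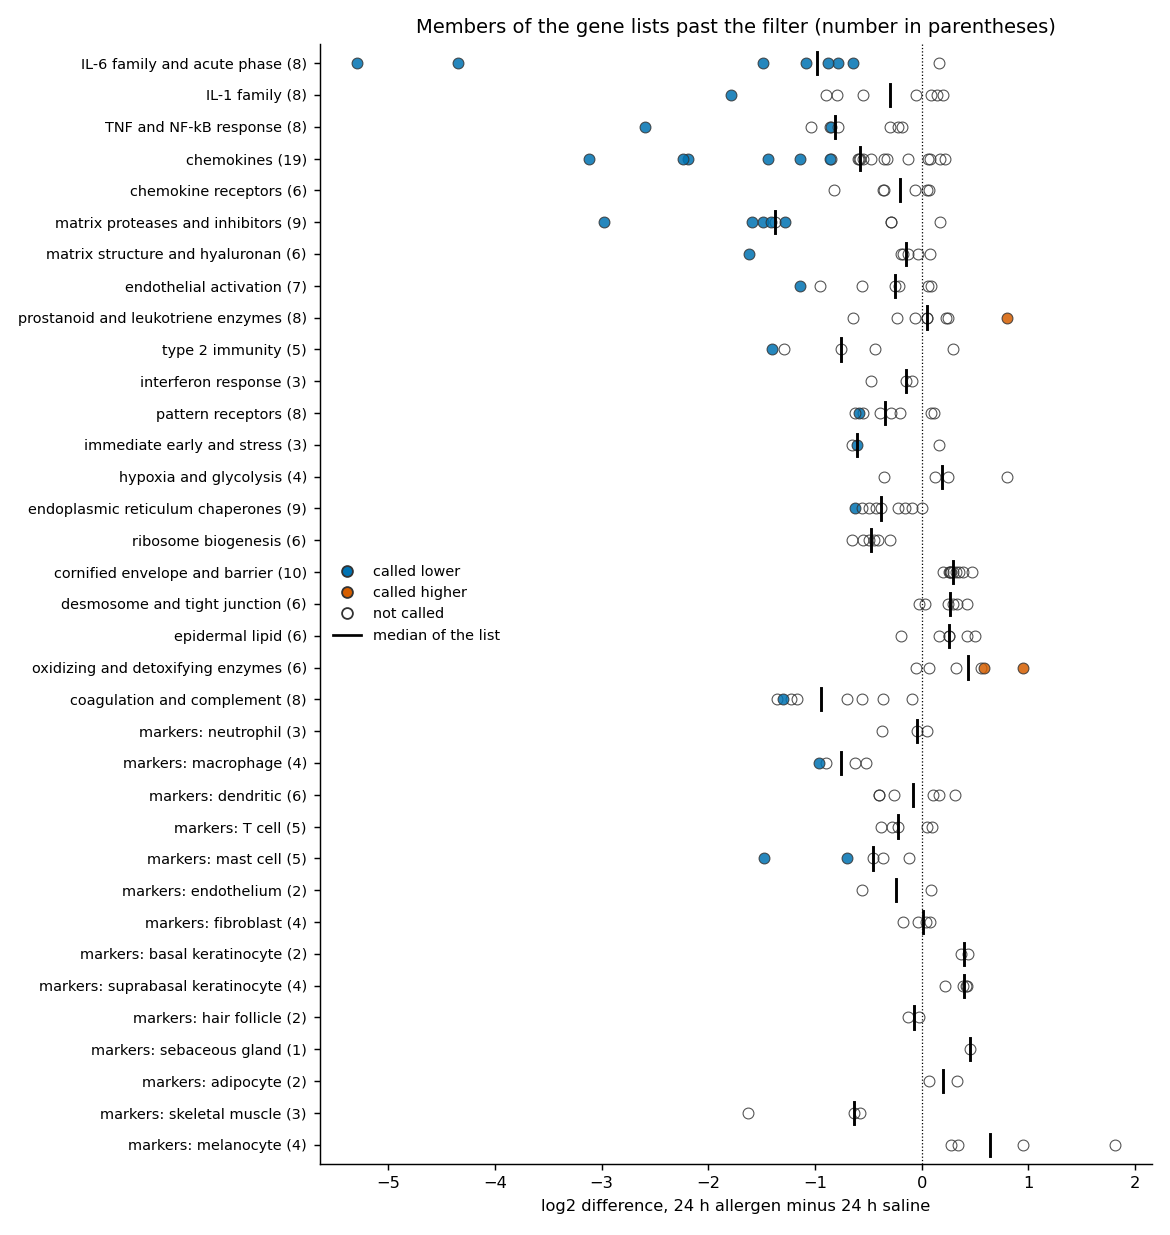
Allergen minus saline difference at 24 hr (log2, horizontal axis) for each member of the gene lists past the filter, 1 circle per gene, filled where it was called, with a bar at the median of the list. In the IL-6 and acute phase list 7 of 8 members were called lower, and in the cornified envelope list 0 of 10 were called.

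Among the named genes, the largest rises were those of a transporter and of enzymes. SLC1A7, a glutamate transporter, was at 3.64 to 4.60 at saline sites (median, 3.95), at 5.61 to 6.63 at allergen sites (median, 6.06) and at 5.36 to 6.65 in untreated skin (median, 5.60). The saline sites lay below both other groups, which overlapped. It rose by 2.10, or 4.28-fold (SE 0.14, adjusted p = 0.00401), but by 1.26 with variance stabilization and 0.78 with normexp. The sulfotransferase SULT1B1 rose by 1.99 (SE 0.28, adjusted p = 0.0193), with 2 of 6 saline arrays well above background, and differed by 0.36 with normexp, where it was not called. The cytochrome CYP2A13 rose by 1.80 at the brighter of its 2 probes, and ANGPTL1 by 1.49 (SE 0.20, adjusted p = 0.0186). TSHR rose by 1.10 at 1 probe and differed by -0.22 at the other. Of 6 oxidizing and detoxifying enzymes 2 rose (median, 0.44), the monooxygenase FMO2 by 0.95 and the sulfotransferase SULT1A1 by 0.59. An aldehyde oxidase outside the list, AOX2, rose by 0.97, with 5 of 6 saline arrays well above background. The remaining rises in this group were BEX1 (1.03), SLITRK6 (0.91) and C12orf28 (0.88). In the prostanoid list 1 of 8 genes rose (median, 0.05), namely HPGD, which inactivates prostaglandins, by 0.80.

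Genes of the epidermal barrier were not called in either direction. This held for 10 genes of the cornified envelope (median, 0.29), 6 of desmosomes and tight junctions (0.27) and 6 of epidermal lipid metabolism (0.26). SCEL, DSG1 and ASAH2 had the largest differences, at 0.47, 0.43 and 0.50, with adjusted p from 0.0616 to 0.162. None of 2 basal and 4 suprabasal keratinocyte markers was called (medians, 0.40 and 0.40), nor of 2 hair follicle, 1 sebaceous and 2 adipocyte markers (-0.07, 0.45 and 0.20). Their largest differences were 0.44 for KRT15, -0.13 for KRT71, 0.45 for PPARG and 0.33 for ADIPOQ.

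Untreated skin of the same dogs was set beside both sites to place these differences. Of the 370 probes called lower, 334 (90.3%) were higher at the saline site than in untreated skin and none was lower, with a median of 1.26. Over all probes 9.74% were called higher and 20.3% lower at the saline site, with a median of -0.04. At the allergen site 99 of the 370 (26.8%) were higher than in untreated skin and 5 (1.35%) were lower, with a median of 0.42. Here 6.53% of all probes were called higher and 16.4% lower. For 235 of the 370 (63.5%, against 4.82% of all probes) the saline site was above untreated skin and the allergen site was not called against it. Both sites were above untreated skin for 99 (26.8%, against 4.92%). Neither site was called for 31 (8.38%, against 67.7%), and only the allergen site was called, below untreated skin, for 5 (1.35%, against 0.654%). A site that is not called against untreated skin is not shown to equal it. The 3 comparisons share arrays, and probes chosen for a low allergen against saline value tend to have high saline values, so these counts place the probes and are not separate tests.

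PTX3 and TNFAIP6 were of the first kind, CCL2, FCGR1A, VCAN and MRC1 of the second, and ADAMTS5 belonged to the 5. The pattern was close to this in the 236 probes that are not in the gene list of the study. Of these, 207 (87.7%) were higher at the saline site than in untreated skin and 57 (24.2%) at the allergen site. Dim probes shifted down against untreated skin on the whole. When all probes were split into 4 equal groups by mean signal, the saline minus untreated median was -0.31 in the dimmest group and 0.06 in the brightest. The median of all probes rose to 0.55 for saline and 0.52 for allergen against untreated skin when the arrays were not scaled, so levels against untreated skin are relative to the other probes on the array.

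The 278 probes called higher lay the other way. At the saline site 192 (69.1%) were lower than in untreated skin (median, -0.78) and 1 was higher. At the allergen site 26 (9.35%) were higher and 18 (6.47%) lower (median, 0.02). The shares at the allergen site are to be read beside the 6.53% and 16.4% of all probes given above.

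**Figure D4:**
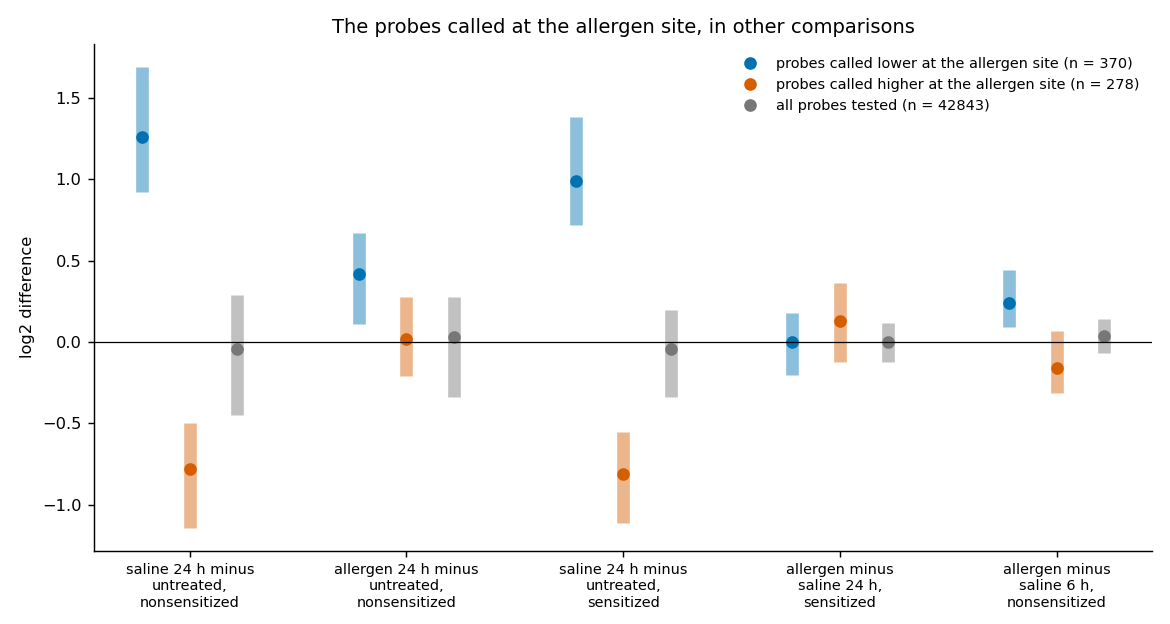
Log2 differences (vertical axis) of the probes called lower, the probes called higher and all probes tested in 5 other comparisons (horizontal axis), with points at the medians and bars from the lower to the upper quartile. Probes called lower had a median of 1.26 for saline minus untreated skin and 0.42 for allergen minus untreated skin in nonsensitized dogs, and of 0.99 for saline minus untreated skin in sensitized dogs.

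The sensitized dogs gave the same measure in animals that the choice of probes did not use. At their saline site 315 of the 370 (85.1%) were higher than in their untreated skin (median, 0.99) and 1 was lower, against 4.66% and 11.2% of all probes. For PTX3 this difference was 5.17, for ADAMTS4 2.60 and for CCL2 3.06, beside 5.77, 4.19 and 4.06 in the nonsensitized dogs. No such difference is given for IL6, which was near background in untreated skin. For ADAMTS5 it was 0.22 (adjusted p = 0.419). Of the 278 probes called higher, 194 (69.8%) were lower at the saline site of the sensitized dogs than in their untreated skin.

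Between the allergen and saline sites of the sensitized dogs, without the array that the methods excluded as specimen 14 (dog 2839 by the specimen number of its file), the 370 probes had a median difference of 0.00 and quartiles of -0.20 and 0.18. The difference itself was tested as the nonsensitized minus the sensitized response. It was negative and called for 204 of the 370 (55.1%), against 2.06% of all probes, and positive and called for 83 of the 278 (29.9%), against 2.48%. Both comparisons contain the arrays that chose the probes, and among the 236 outside the gene list of the study the first count was 75 (31.8%). PTX3 differed by -1.06 between allergen and saline in sensitized dogs, and its response differed between the groups of dogs by -4.23 (adjusted p = 0.00263). IL6 differed by 0.38 in sensitized dogs, with a group difference of -4.72 (adjusted p = 0.00465) that rests on nonsensitized allergen values close to background. ADAMTS4 differed by 0.33, with a group difference of -3.31 (adjusted p = 0.0157). MMP3 differed by -1.77 in sensitized dogs without being called (adjusted p = 0.0703), and its group difference was 0.18 (adjusted p = 0.933).

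At 6 hr the same dogs showed no such falls. Of the probes tested, 0% were called lower and 0.042% (18) higher at the allergen site, while 5293 had an unadjusted p below 0.05 in limma. None of the 370 was called at 6 hr, their median was 0.24 and 319 of them were above 0, beside a median of 0.04 over all probes. PTX3 differed by 1.04 (adjusted p = 0.51) and ADAMTS4 by 0.97 (adjusted p = 0.583). The 24 hr difference minus the 6 hr difference was negative and called for 283 of the 370 (76.5%), against 1.6% of all probes. It was positive and called for 164 of the 278 (59%), against 1.39%. This comparison, too, contains the 24 hr arrays that chose the probes.

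**Figure D5:**
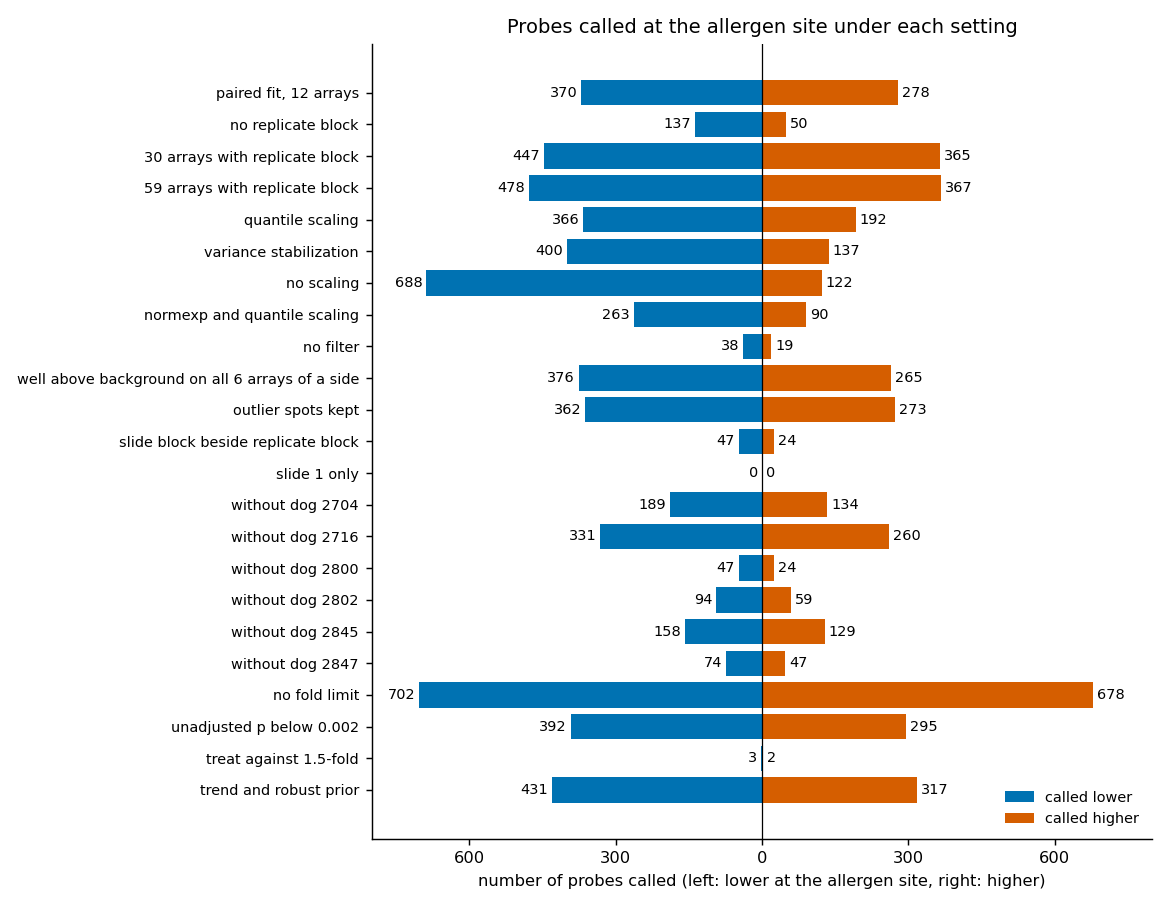
Number of probes called lower (bars to the left) and higher (bars to the right) at the 24 hr allergen site under each processing setting (vertical axis). The counts were 370 and 278 in the setting reported, 137 and 50 without the pairing by dog, and 47 and 24 without dog 2800.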

How the data were processed

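The deposited values are spot intensities (processed signals) that the authors made from Cy3 scans with Agilent Feature Extraction 10.7.3.1. They are background-subtracted, on a linear scale and without scaling between arrays, and the series table holds the same signals. Replicates were not pooled.

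Signals were divided by each array's 75th percentile (factors 1.14 to 1.45) and taken to log2. Spots with outlier flags were set to missing, and spots of a probe were averaged. The filter left 44045 of 61657 spots. Limma 3.58.1 in R 4.3.3 was fitted to the 12 arrays with the dog as a fixed block, since both sites came from the same animal. After removal of group means, the correlation between the sites of a dog was 0.291 to 0.744 over the 6 dogs. Residual and prior degrees of freedom were 5 and 2.93. Comparisons with untreated skin and 6 hr used the 30 arrays of nonsensitized dogs, and those with sensitized dogs used 59 arrays, both with the dog as a block. The 6 dogs of a group are separate animals, and their number limits the precision. The untreated array of dog 2847 came as a table with rounded signals and no header. The pipeline was tested on simulated data. Tables and figures were made in Python 3.11.15 with matplotlib 3.10.9, scipy 1.17.1, pandas 2.3.3 and numpy 2.4.6.

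Of 54633 identifiers on the array, 1070 were named through RefSeq accessions (assembly UU_Cfam_GSD_1.0) and 518 through identifier columns of a gene table of the study. Named genes were PTX3, ADAMTS4 and IL6, the 20 largest named falls and 10 largest named rises among the calls, and for each gene list the 2 called members with the largest change in each direction or, where none was called, the member with the largest change. A gene with several probes was given by its brightest. Of the 499 symbols in the lists, 192 passed the filter. The lists of wound keratinocytes and of proliferation had no member past it. OSMR, CEBPD, STAT3, BCL3, LIFR, CCL13, CCL19, CXCL1, CXCL8, TNF, IL1A, IL1RN, ADAMTS1, TIMP1 and the largest unnamed rise were mentioned after their values were seen. A few list members are counted but not reported here. The arrays, lists and tests were chosen with earlier results of these data known.

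Alternatives were the pairing, the arrays that share the spread, the scaling, the background correction, the filter, outlier spots, the slide, each dog left out, the thresholds and the variance model. Columns of fold changes and p-values in the study's tables were not used.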

Additional observations from a re-analysis of the deposited data

Results flagged for a closer look

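Single samples far from the other 5 of their group were found in 7 of 174 groups of named genes, where chance gives about 1 in 20. In untreated skin CCL2 was at 11.35 in dog 2847, CD86 at 9.37 and RTEL1 at 5.40 in dog 2802. DSG1 was at 13.44 at the allergen site of dog 2800 and at 12.92 at the saline site of dog 2716. At saline sites PPARG was at 9.86 in dog 2802 and TYRP1 at 1.29 in dog 2845.

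The 24 hr response (allergen minus saline, log2) differed between nonsensitized and sensitized dogs for 40 named genes by limma, and these differences are given as nonsensitized minus sensitized. They share arrays with the comparison that named the genes, and CXCL6 is left out because 0 of 6 allergen arrays measured it clearly above background. Among acute phase, cytokine and signalling genes it was -4.23 for PTX3, -4.72 for IL6, -1.53 for SOCS3, -1.59 for IL33, -2.74 for TNFAIP6 and -0.80 for TNFRSF1A. Among chemokines it was -2.53 for CCL8 and -2.35 for CCL2. Among matrix genes it was -3.31 for ADAMTS4, -1.27 for ADAMTS5 and -1.71 for VCAN. Among immune cell genes it was -1.44 for MS4A7, -1.61 for MRC1, -1.70 for HDC, -1.30 for MS4A2, -2.82 for S100A8 and -1.70 for ICOS. It was -2.24 for CHI3L1, -0.96 for TLR2 and -0.96 for the complement regulator CD46. For CDA it was -2.07, for RTEL1 -1.72, for ABCA8 -1.26, for MT2A -1.55, for ATP2B3 -1.37, for HSPA5 -0.77, for MRTO4 -0.79 and for KDR -0.62. It was positive for SLC1A7 (1.89), ANGPTL1 (1.36), BEX1 (1.55), FMO2 (1.80), SLITRK6 (1.75), C12orf28 (1.21), HPGD (1.14) and SULT1A1 (0.70). Of epidermal genes, SCEL had 1.18, DSG1 0.61, ASAH2 1.13 and KRT15 0.82.

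The 24 hr response differed from the 6 hr response of the nonsensitized dogs for 35 named genes by limma, given as 24 hr minus 6 hr. It was -6.33 for PTX3, -6.24 for IL6, -2.11 for SOCS3, -2.02 for IL33, -3.63 for TNFAIP6 and -1.17 for TNFRSF1A. Among chemokines it was -3.22 for CCL8 and -3.08 for CCL2. Among matrix genes it was -3.96 for ADAMTS4, -1.94 for ADAMTS5 and -1.92 for VCAN. Among immune cell genes it was -1.84 for MS4A7, -1.24 for MRC1, -1.72 for HDC and -0.88 for MS4A2. It was -2.40 for CHI3L1, -0.82 for TLR2 and -1.56 for the complement regulator CD46. For ICAM1 it was -1.71, for CDA -2.43, for RTEL1 -2.30, for ABCA8 -1.61, for MT2A -1.83, for ATP2B3 -1.56, for HSPA5 -1.03 and for MRTO4 -0.83. The value of IL6 here and between the groups of dogs rests partly on signals close to background, so its size is uncertain. The 24 hr minus 6 hr value was positive for SLC1A7 (2.47), CYP2A13 (1.47), ANGPTL1 (1.85), FMO2 (0.97), SLITRK6 (1.59), C12orf28 (1.16), HPGD (0.80), CA9 (0.78) and SULT1A1 (0.64).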

How the results depend on the processing

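Counts of calls moved with the setting. Without the replicate block 137 probes were called lower and 50 higher, and variance stabilization gave 137 higher. No scaling gave 688 and 122, and normexp with quantile scaling gave 90 higher. With no filter there were 38 and 19, and within slide 1 there were 0 and 0. The slide as a block beside the replicate block gave 47 and 24, the same as leaving out dog 2800. Only that dog had its sites on different slides, so these settings are the same check. Without the fold limit there were 702 and 678, and with limma's treat against 1.5-fold 3 and 2. Leaving out each dog gave 47 to 331 lower and 24 to 260 higher calls. Without the replicate block 136 of its 137 lower calls were among the 370. Both fits use the same arrays, so this overlap describes the calls and does not test them. Among the 370 probes, the 24 hr minus 6 hr difference was called negative for 73 without the replicate block. The difference between nonsensitized and sensitized dogs was called negative for 74 without that block and for 94 to 226 with each dog left out. It was lowest without dog 2802, and it was 114 without dog 2800 and 97 without dog 2855. The causes of these moves were not tested. The counts against untreated skin stayed within 1.5 times under every setting tried. For saline in sensitized dogs they ran from 300 to 327 with each dog left out, a check chosen after the data were seen.

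None of the 41 named genes called reversed under any setting. Each had moved the same way in every dog, so settings that only drop dogs or change thresholds could not reverse it. For those settings this count is no test of the calls. Without the replicate block 17 of the 41 were no longer called, without dog 2800 there were 29, and within slide 1 there were 41. PTX3 ran from -5.59 to -3.84. The differences of further genes also shrank by over 1.5 times with normexp, to -0.49 for MMP3, -0.81 for ATP2B3, 0.73 for ANGPTL1, 0.32 for TSHR and 0.33 for AOX2. With variance stabilization they were 0.71 for SULT1B1, -0.97 for MMP3, 0.63 for TSHR and 0.54 for AOX2. Within slide 1 MT2A was -0.91, ICAM1 -0.75 and HPGD 0.45. PTX3, ADAMTS4, IL6, TNFAIP6, CCL8, CCL2, IL33, ATP2B3, ADAMTS5, CD46 and SLC1A7 were called whichever dog was left out. Of genes not called, COL1A1 was 0.00 with the slide block, 0.35 within slide 1 and -0.38 to 0.00 with each dog left out. MX1 was 0.41 within slide 1, and KRT71 ran from -0.30 to 0.03 with each dog left out. Dim probes limit IL6, CXCL6, MMP3, SULT1B1, SLC1A7 and AOX2, which were not well above background on each array of a 24 hr site.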
